A study of Mus musculus with 8 samples.

Results

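Sonic hedgehog (Shh), the receptors and inhibitors Ptch1, Smo, Hhip and Sufu, and the transcription factors Gli1, Gli2 and Gli3 were examined in newborn mouse lung. These 8 genes were taken by symbol from the platform's probe annotation, out of 20842 named genes on the array, and they were read by 21 features. RNA of 8 whole lungs from C57Bl/6J pups was hybridised to 1-colour Agilent arrays, and values are log2 signals on a common scale. The first group was 4 libraries labelled Fgf10+/- (titled TG), from pups heterozygous for Fgf10, which encodes a fibroblast growth factor of lung mesenchyme. The second was 4 wild-type libraries (titled WT). Both groups were kept at 20% oxygen, in a chamber, between postnatal days 0 and 3. No source used here gives the allele, the litter or the sex. The submitters call the 4 samples of each group independent without saying how, so p-values measure the spread between these libraries.

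Hedgehog signalling runs from a secreted ligand to a set of transcription factors. SHH binds the receptor PTCH1, which otherwise holds the membrane protein SMO inactive. Active SMO, in the primary cilium, releases the GLI factors from the inhibitor SUFU. GLI2 is then the main activator and GLI3 acts largely as a repressor when the ligand is absent. Gli1, Ptch1 and Hhip are themselves target genes, and PTCH1 and HHIP bind the ligand and limit its range. In the developing lung Shh is made by the epithelium and is received by the mesenchyme, where it is known to restrain Fgf10.

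None of the 8 hedgehog genes passed the test between the groups. In the libraries labelled Fgf10+/-, the mean was higher for Gli2, Gli3, Smo and Hhip and lower for Shh, Ptch1, Gli1 and Sufu, with a median log2 difference of -0.02 against -0.0012 over all genes tested. With limma and Benjamini-Hochberg adjustment over all genes, 0 of the 8 reached an adjusted p under 0.05, where the share over all 20842 genes was 0%. At an unadjusted p under 0.05 there was 1, Gli3, higher in the libraries labelled Fgf10+/-, where the share over all genes was 11.0% (4.74% higher and 6.29% lower). The groups did not overlap for the same 1 gene, against 7.39% of all genes (2.99% higher and 4.40% lower). Gli3 is thus 1 of 8 on either count, a share that a single gene sets. The Fgf10 signal gave no check on the labels. In the libraries labelled Fgf10+/- its log2 signals were 7.55, 7.96, 7.96 and 8.33, against 7.49, 7.81, 6.89 and 7.64 in the wild-type libraries (difference 0.49, SE 0.24, limma adjusted p = 0.507). The first group is thus not the lower one on the feature shown, which is the 1 of 10 with the highest mean. The other Fgf10 features are not given here. No source used here places the 10 Fgf10 features relative to the altered part of the gene, and each direction rests on the labels alone.

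**Figure D1:**
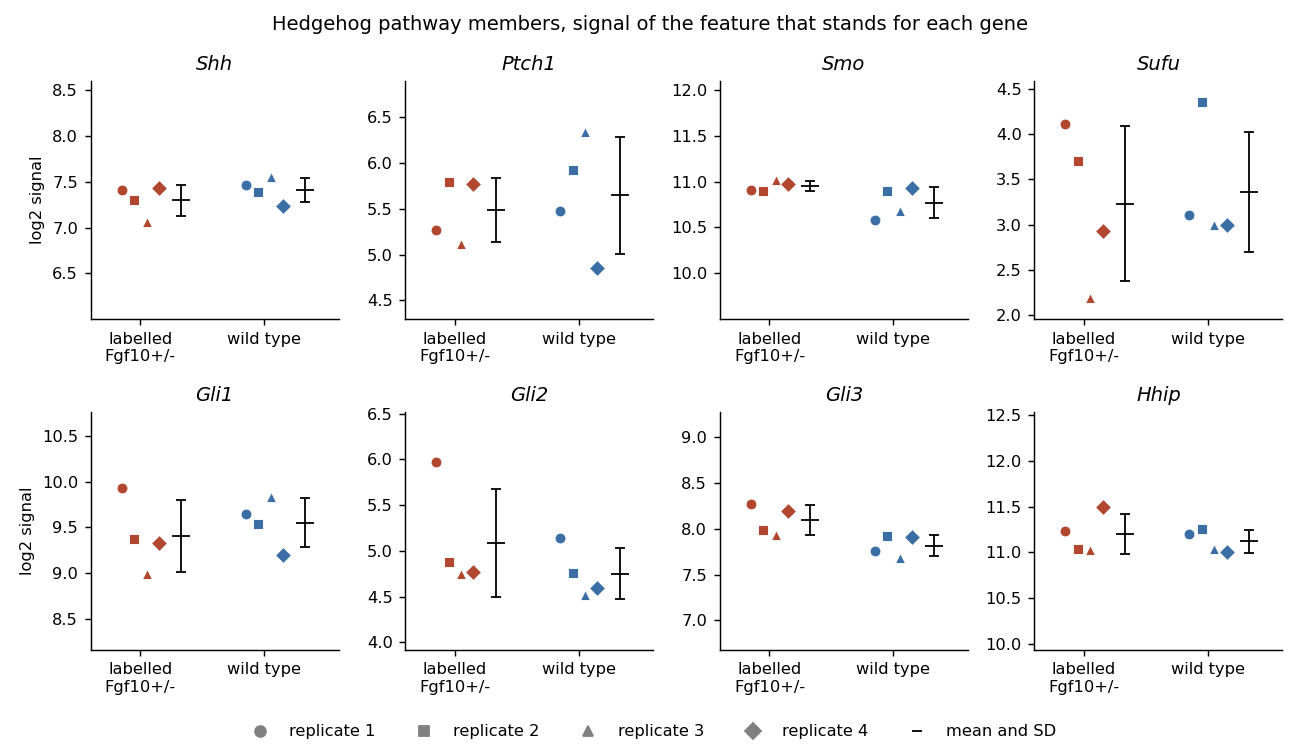
Log2 signal (vertical axes, a separate range in each panel) of the feature that stands for each hedgehog gene, by library. Points are single libraries with a symbol for each replicate number, and bars give mean and SD (n = 4 per group). Gli3 is the only panel in which the lowest library labelled Fgf10+/- (7.93) lies above the highest wild-type library (7.92).

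Gli3, the GLI factor that is processed to a repressor in the absence of ligand, was the 1 hedgehog gene whose groups stood apart. Its log2 signals were 8.28, 7.99, 7.93 and 8.20 in the libraries labelled Fgf10+/-, against 7.76, 7.92, 7.68 and 7.91 in the wild-type libraries. Every library labelled Fgf10+/- lies above every wild-type library, but the nearest values are 7.93 and 7.92. The log2 difference was 0.28 (SE 0.12), a fold of 1.21 with a 95% interval of 1.00 to 1.47. The two-sided exact permutation p was 0.0286, the smallest that 70 assignments can give, and the limma adjusted p of 0.451 did not pass. With each library left out in turn the difference ran from 0.22 to 0.34. Gli3 was read by 1 feature, so no second reading of it was at hand. By the RefSeq table Gli3 and Ptch1 lie on chromosome 13, which also carries Fgf10. The distances between these genes were not examined, and a bearing of the shared chromosome on these values was not tested.

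The region before the Gli3 start is shown because Gli3 is the member whose libraries parted by group. The 250 bases end at the base before the RefSeq start, on the plus strand of GRCm38.p6 at chr13:15463473-15463722, and are taken from RefSeq.
Gli3: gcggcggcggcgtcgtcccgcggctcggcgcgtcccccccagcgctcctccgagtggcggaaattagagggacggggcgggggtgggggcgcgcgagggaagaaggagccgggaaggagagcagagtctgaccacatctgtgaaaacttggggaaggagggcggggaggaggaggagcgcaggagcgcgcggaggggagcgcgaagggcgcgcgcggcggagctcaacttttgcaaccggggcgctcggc
The window has a GC content of 72.8%. The GLI consensus GACCACCCA and its inner part ACCACCC, which lies within it, were searched on both strands, and neither occurs in this window, so no base is in capitals. The consensus occurs in 0.225% of 32851 RefSeq promoter windows of the same length and the inner part in 3.92%. Of the 6 hedgehog genes in that table, Gli3, Smo and Sufu have a window that lies wholly before the annotated gene, and 0 of these 3 windows hold either run of letters.

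Gli2, the main activator, and Gli1, the target gene that most directly reports GLI activity, gave no difference beyond the spread. Gli2 signals were 5.97, 4.88, 4.74 and 4.77 in the libraries labelled Fgf10+/-, against 5.15, 4.76, 4.52 and 4.59 in the wild-type libraries. Replicate 1 of the first group stands alone, and the difference of 0.34 (SE 0.29, limma adjusted p = 0.739) was 0.04 without it. Gli1 signals were 9.93, 9.37, 8.99 and 9.33 in the libraries labelled Fgf10+/-, against 9.64, 9.54, 9.83 and 9.20 in the wild-type libraries. Both the highest and the lowest of the 8 Gli1 values are in the first group, so the groups overlap fully. The Gli1 difference was -0.15 (SE 0.22, limma adjusted p = 0.860), with a fold of 0.903 and a 95% interval of 0.636 to 1.28. Leaving out Fgf10+/- replicate 3 gave -0.0082, and leaving out Fgf10+/- replicate 1 gave -0.32.

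Shh, the ligand, had a slightly lower signal in the libraries labelled Fgf10+/-, and its groups parted when its 10 features were averaged. On the feature that stands for the gene, which has the highest mean of the 10, the signals were 7.41, 7.30, 7.06 and 7.43, against 7.47, 7.39, 7.55 and 7.24 in the wild-type libraries. The groups overlap there, and the difference was -0.11 (SE 0.13, limma adjusted p = 0.801). It ran from -0.17 to -0.032 with each library left out in turn, the smallest without Fgf10+/- replicate 3. All 10 features had a lower mean in the libraries labelled Fgf10+/-, by 0.02 to 0.40 on the log2 scale. The groups did not overlap on 2 of them, but the share over all single features was not computed, so this count has no background. The features share their RNA samples, so their common sign is not 10 independent readings. The means of the 10 features lay close together, from 7.04 to 7.35. Whether they repeat 1 probe sequence was not examined. Averaged over the 10 features, Shh was 7.18, 7.20, 7.08 and 7.03 in the libraries labelled Fgf10+/-, against 7.30, 7.23, 7.30 and 7.29 in the wild-type libraries. The lowest wild-type average, 7.23, lies above the highest of the first group, 7.20. That difference was -0.16 (SE 0.10, two-sided exact permutation p = 0.0286, limma adjusted p = 0.620), and it ran from -0.19 to -0.13 with each library left out in turn. On averaged features the groups did not overlap for 6.96% of all genes, with 3.99% lower.

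**Figure D2:**
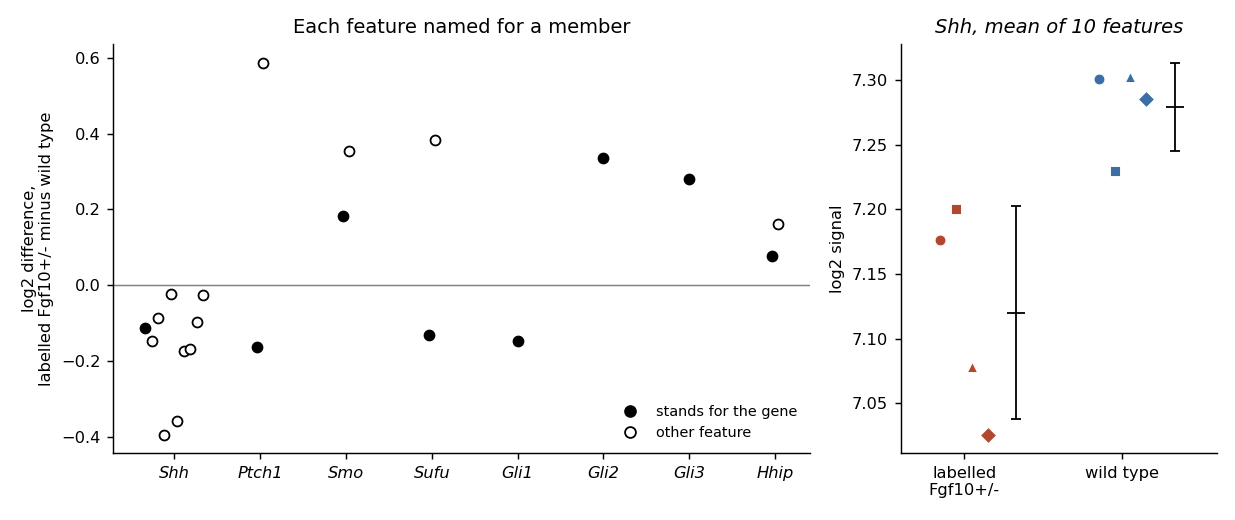
Left, log2 difference (libraries labelled Fgf10+/- minus wild type) of each of the 21 features named for a hedgehog gene. Filled points stand for the gene and open points are its other features. All 10 Shh features lie below 0, while the features of Ptch1 and Sufu lie on both sides of it. Right, log2 signal of Shh averaged over its 10 features by library, with mean and SD (n = 4 per group) and a symbol for each replicate number. The 2 groups do not overlap.

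Shh is an epithelial gene in lung, and the levels of epithelial markers moved with the groups. All 15 epithelial markers of a list had the lower mean in the libraries labelled Fgf10+/-, with a median difference of -0.42. The list's mean deviation from its 8-array mean ran from -0.33 to -0.14 in that group, against 0.12 to 0.41 in the wild-type libraries, without overlap. Epcam, an adhesion protein of epithelial cells, differed by -0.46 and Nkx2-1, the lung epithelial transcription factor, by -0.55, with limma adjusted p of 0.256 and 0.244. Nkx2-1 was picked after its values were seen. None of the 15 passed, and 12 had an unadjusted p under 0.05 in limma (80%, against 11.0% of all genes). In RNA of whole lung, fewer cells of a type and less RNA per cell cannot be told apart. The part of these markers in the Shh values was not tested.

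On the receiving side, the mesenchymal markers had the opposite sign. Of 16 mesenchymal markers 14 had the higher mean in the libraries labelled Fgf10+/-, with a median difference of 0.22 and 0 past the threshold. In limma 6 of the 16, all higher, had an unadjusted p under 0.05 (37.5%, against 11.0% of all genes). The groups did not overlap for 2 of them (12.5%, against 7.39% of all genes). The list's deviation ran from 0.02 to 0.17 there and from -0.23 to 0.06 in the wild-type libraries, so the groups overlap. Tcf21, a transcription factor of lung fibroblasts, differed by 0.21 (limma adjusted p = 0.600). Gli3, Gli2, Smo and Hhip, with higher means, share this sign and Gli1 does not. Ptch1 does not on its main feature (-0.16), but does on the average of its 2 features (0.21). The same holds for Sufu, at -0.13 on its main feature and 0.13 on the average of its 2 features. The part of the mesenchymal markers in these values was not tested.

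Smo, the signalling receptor, was the hedgehog gene with the second smallest p. Its signals were 10.91, 10.90, 11.02 and 10.98 in the libraries labelled Fgf10+/-, against 10.58, 10.89, 10.68 and 10.94 in the wild-type libraries. The first group is tight, and wild-type replicate 4 alone lies within its range. The difference was 0.18 (SE 0.11, exact permutation p = 0.114, limma adjusted p = 0.624), a fold of 1.13 with a 95% interval of 0.944 to 1.36. The second Smo feature differed by 0.35, also with overlapping groups.

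Ptch1 and Hhip, which bind the ligand and are induced by it, showed no common direction. Ptch1 signals were 5.27, 5.79, 5.11 and 5.77 in the libraries labelled Fgf10+/-, against 5.47, 5.93, 6.34 and 4.85 in the wild-type libraries. The wild-type group holds both the highest and the lowest value. The difference was -0.16 (SE 0.32, limma adjusted p = 0.899), and it was 0.068 without wild-type replicate 3 and -0.43 without wild-type replicate 4. A second Ptch1 feature, with a mean of 2.76 that is below the array median of 3.47, differed by 0.59, and the average of both features by 0.21, so the direction of Ptch1 is not settled. The 95% interval of the main feature's log2 difference, -0.91 to 0.58, is wide.

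Hhip, the membrane protein that binds and sequesters hedgehog ligands, had signals of 11.24, 11.04, 11.03 and 11.49 in the libraries labelled Fgf10+/-, against 11.20, 11.25, 11.03 and 11.00 in the wild-type libraries. Only replicate 4 of the first group lies above every wild-type library. The difference was 0.08 (SE 0.14, limma adjusted p = 0.889), with a fold of 1.05 and a 95% interval of 0.846 to 1.31, and it was -0.022 without that replicate 4. The other Hhip feature differed by 0.16.

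Sufu, the inhibitor that holds GLI proteins in the cytoplasm, was read near the floor of the array. Its signals were 4.11, 3.70, 2.18 and 2.93 in the libraries labelled Fgf10+/-, against 3.11, 4.36, 2.99 and 2.99 in the wild-type libraries. The SD within the groups, 0.85 and 0.67, is several times the difference of -0.13 (SE 0.47, limma adjusted p = 0.950), and the fold interval runs from 0.428 to 1.95. Its 2 features, with means of 3.30 and 2.82, differed in opposite directions, the second by 0.38.

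**Figure D3:**
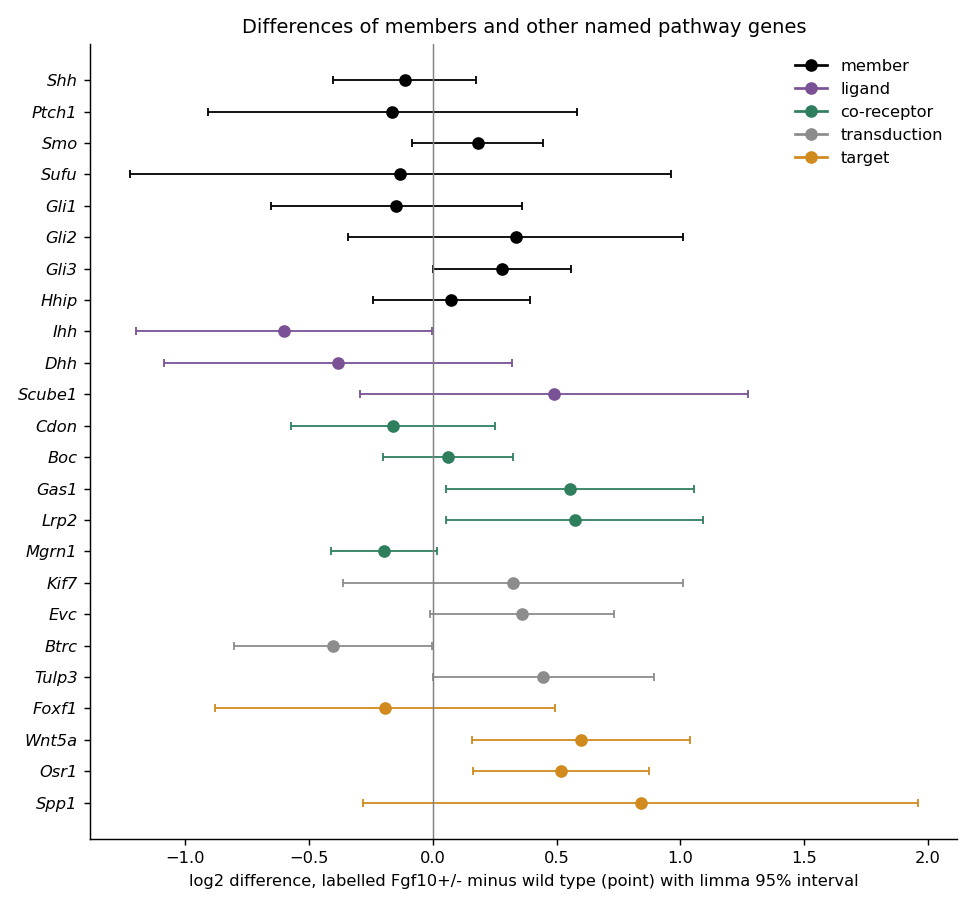
Log2 difference (libraries labelled Fgf10+/- minus wild type, n = 4 per group) with limma's 95% interval for the 8 hedgehog genes in black and for 16 other genes of the pathway, coloured by role. The intervals are not adjusted for the number of genes. Those of Gli3, Gas1, Lrp2, Wnt5a, Osr1, Ihh, Btrc and Tulp3 leave out 0, and none of the 24 genes passed after adjustment.

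The rest of the pathway was read from 4 lists by role, and 0 of their 64 measured genes passed in limma at an adjusted p under 0.05. At an unadjusted p under 0.05 there were 7, 5 higher and 2 lower, or 10.9% against 11.0% of all genes. The groups did not overlap for 4 of the 64 (6.25%), against 7.39% of all genes. The median difference over the 64 was 0.06.

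Of the 8 genes for ligands and their processing and release, 5 had a higher and 3 a lower mean, with a median of 0.10. Ihh, the ligand best known from cartilage and gut, had signals of 2.08, 2.47, 2.77 and 2.62 in the libraries labelled Fgf10+/-, against 3.39, 2.96, 3.53 and 2.45 in the wild-type libraries. All but one of these, 3.53, lie below the array median of 3.47, and the groups overlap (difference -0.60, SE 0.26, limma adjusted p = 0.452). Dhh, the ligand of testis and peripheral nerve, averaged 7.12 ± 0.49 in the libraries labelled Fgf10+/- and 7.51 ± 0.47 in the wild-type libraries (SD, n = 4 each, limma adjusted p = 0.708). All 3 ligands thus had a lower mean in the first group, and none passed. Scube1, a relative of the Scube2 protein that helps release the ligand, differed by 0.49 (limma adjusted p = 0.663).

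Of the 7 measured receptors and co-receptors, 5 had a higher and 2 a lower mean, with a median of 0.17. Gas1, a co-receptor that promotes signalling, had signals of 6.89, 6.41, 6.05 and 6.09 in the libraries labelled Fgf10+/-, against 5.47, 5.85, 5.81 and 6.09 in the wild-type libraries. Replicates 1 and 2 of the first group lie above every wild-type library, while replicates 3 and 4 do not (difference 0.55, SE 0.22, limma adjusted p = 0.407). It was 0.30 when its 3 features were averaged. Lrp2, the large endocytic receptor megalin that also binds SHH, had signals of 7.96, 7.68, 7.01 and 7.80 in the libraries labelled Fgf10+/-, against 6.98, 6.90, 7.40 and 6.87 in the wild-type libraries. Here 3 of the 4 lie above every wild-type value (difference 0.57, SE 0.23, limma adjusted p = 0.407). The co-receptors Cdon and Boc differed by -0.16 and 0.06, with limma adjusted p of 0.801 and 0.888, and Cdon by 0.19 when both its features were averaged. Mgrn1, a ubiquitin ligase that lowers SMO at the cell surface, had signals of 11.48, 11.48, 11.42 and 11.56 in the libraries labelled Fgf10+/-, against 11.64, 11.77, 11.66 and 11.65 in the wild-type libraries. The Mgrn1 groups did not overlap (difference -0.20, SE 0.09, exact permutation p = 0.0286, limma adjusted p = 0.493).

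Of 29 measured genes of cytoplasmic and ciliary transduction, 19 had a higher and 10 a lower mean, with a median of 0.05. Kif7, the ciliary kinesin that regulates GLI processing, averaged 5.68 ± 0.10 in the libraries labelled Fgf10+/- and 5.35 ± 0.66 in the wild-type libraries (SD, n = 4 each, limma adjusted p = 0.754). The smallest p in this list belonged to Btrc, part of the ubiquitin ligase that marks GLI3 for processing, with a difference of -0.40 (SE 0.17, limma adjusted p = 0.449). Tulp3, which carries receptors into the cilium, differed by 0.45 (SE 0.19, limma adjusted p = 0.452), and wild-type replicate 4 at 7.96 lies within the first group's range. Evc, a ciliary protein that relays the SMO signal, differed by 0.36 (limma adjusted p = 0.470), but by -0.022 when both its features were averaged. Ift88 and Spop had lower, non-overlapping values in the libraries labelled Fgf10+/-. They were picked here after their values were seen. Ift88, a ciliary transport protein, averaged 8.31 ± 0.07 in the libraries labelled Fgf10+/- and 8.50 ± 0.07 in the wild-type libraries, with a limma adjusted p of 0.499 (SD, n = 4 each). Spop, an adaptor for GLI degradation, averaged 9.85 ± 0.09 in the libraries labelled Fgf10+/- and 10.01 ± 0.05 in the wild-type libraries, with a limma adjusted p of 0.625 (SD, n = 4 each).

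Of 20 genes described as hedgehog targets, 11 had a higher and 9 a lower mean, with a median of 0.02. Foxf1, the mesenchymal forkhead factor of the lung, had signals of 5.89, 6.02, 5.91 and 5.91 in the libraries labelled Fgf10+/-, against 6.51, 6.30, 6.55 and 5.15 in the wild-type libraries. The first group lies inside the wild-type range because of wild-type replicate 4 alone. The difference was -0.19 (SE 0.30, limma adjusted p = 0.865) and -0.52 without that library (limma adjusted p = 0.155). Osr1, a transcription factor of foregut mesenchyme, had signals of 6.96, 6.93, 7.37 and 6.75 in the libraries labelled Fgf10+/-, against 6.34, 6.52, 6.67 and 6.40 in the wild-type libraries. The Osr1 groups did not overlap (difference 0.52, SE 0.15, exact permutation p = 0.0286, limma adjusted p = 0.271). Wnt5a, a secreted ligand of lung mesenchyme, had signals of 10.16, 10.18, 10.03 and 10.33 in the libraries labelled Fgf10+/-, against 9.27, 9.71, 9.28 and 10.05 in the wild-type libraries. Wild-type replicate 4 lies just inside the first group (difference 0.60, SE 0.19, limma adjusted p = 0.302). Spp1, which encodes osteopontin, spread over 4.50 to 6.69 in the libraries labelled Fgf10+/- and 4.15 to 5.46 in the wild-type libraries (difference 0.84, SE 0.49, limma adjusted p = 0.590).

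One wild-type library stood apart in RNA of other tissues. The mean level of 14 cartilage markers was 7.46 in wild-type replicate 4 and from 3.50 to 3.61 in the other 7 libraries, and Col2a1, the main cartilage collagen, was 13.97 there and at most 5.56 elsewhere (a gene picked after its values were seen). Skeletal muscle markers stood at 7.44 in that library and from 3.60 to 4.10 in the others. Named pathway genes lay at both ends of the wild-type values in it. Its Gli1 (9.20), Ptch1 (4.85), Shh (7.24), Hhip (11.00) and Ihh (2.45) signals were the lowest of the 4 wild-type libraries. So were Dhh (6.91), Foxf1 (5.15), Cdon (6.49), Btrc (6.90) and Lrp2 (6.87). Its Smo (10.94), Kif7 (6.14), Tulp3 (7.96), Gas1 (6.09), Evc (6.43), Wnt5a (10.05) and Spp1 (5.46) signals were the highest. Gli2, Gli3 and Sufu lay between. On averaged features its Hhip (9.71) was instead the highest, and its Shh (7.29) was not the lowest. Heart muscle markers were lower in all 4 libraries labelled Fgf10+/-, with deviations of -0.55 to -0.25, against 0.27 to 0.60 in the wild-type libraries. Endothelial markers overlapped, with Pecam1 at a difference of -0.02, as did blood and immune markers, with Ptprc at 0.14, and fat markers, with Adipoq at -0.16. Among the cartilage, skeletal muscle and heart genes, Acan differed by -0.84, Ckm by -1.12 and Myh6 by -0.84, with limma adjusted p of 0.801, 0.396 and 0.146. Without wild-type replicate 4, the hedgehog differences were -0.26 for Gli1, -0.43 for Ptch1, -0.17 for Shh and 0.31 for Gli3, and none passed (lowest limma adjusted p 0.398).

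**Figure D4:**
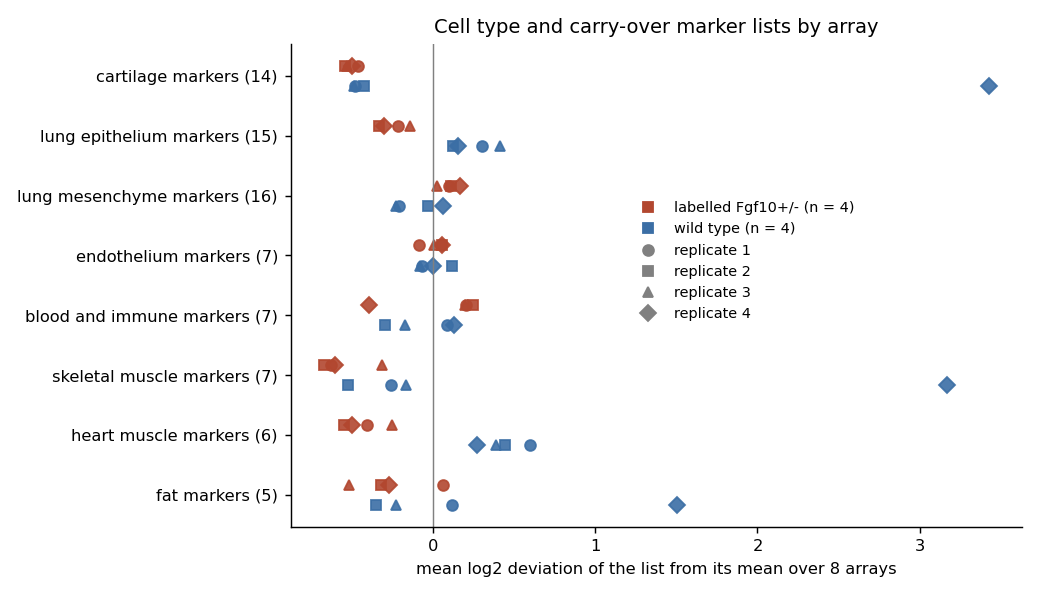
Mean log2 deviation of each marker list from its mean over the 8 arrays (horizontal axis), by library, with the number of genes in parentheses. Libraries labelled Fgf10+/- are above and wild-type libraries below in each row, with a symbol for each replicate number. Epithelial and heart muscle markers part the groups, and wild-type replicate 4 stands alone at 3.43 for cartilage and 3.17 for skeletal muscle.

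Whether hedgehog genes vary together from lung to lung was read from all 28 pairs over the 8 arrays. Shh and Gli1 gave the strongest relation, with Pearson r = 0.83 (exact permutation p = 0.00811, 0.227 after Benjamini-Hochberg adjustment over 28 pairs) and Spearman rho = 0.74 (exact permutation p = 0.0458, 0.470 adjusted). With group means removed r was 0.83. Without the 2 arrays farthest from the Shh median, Fgf10+/- replicate 3 and wild-type replicate 4, r was 0.55 (exact permutation p = 0.263). Dropping the most extreme Shh values narrows the range, which by itself can lower r. Whether the relation rests on those arrays thus cannot be told from this. The relation was also weaker with the 10 Shh features averaged, at r = 0.46 (exact permutation p = 0.254, 0.508 adjusted) and rho = 0.43 (exact permutation p = 0.299). The target genes did not track Gli1 closely, with r of 0.47 for Ptch1 (exact permutation p = 0.236, adjusted 0.613) and 0.20 for Hhip (exact permutation p = 0.647, adjusted 0.823). The rho was 0.48 for Ptch1 (exact permutation p = 0.243) and 0.38 for Hhip (exact permutation p = 0.360). Without the 2 arrays farthest from the Ptch1 median or from the Gli1 median, these r were 0.069 and -0.12. No pair passed the adjustment on either coefficient. On averaged features the pair with the strongest Pearson relation was another one, Ptch1 and Smo, at r = 0.76 (exact permutation p = 0.0284, 0.390 adjusted) and rho = 0.86 (exact permutation p = 0.0107, which did not pass the adjustment), where the single features gave r = -0.41. By Spearman's coefficient it was Shh and Gli3, at rho = -0.88 (exact permutation p = 0.00724, which did not pass the adjustment) and r = -0.69 (exact permutation p = 0.0558, 0.390 adjusted). On these values the groups did not overlap for either gene, with Shh lower and Gli3 higher in the libraries labelled Fgf10+/-. Such a split by itself gives a negative coefficient over the 8 arrays. No coefficient with group means removed was computed on averaged features.

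**Figure D5:**
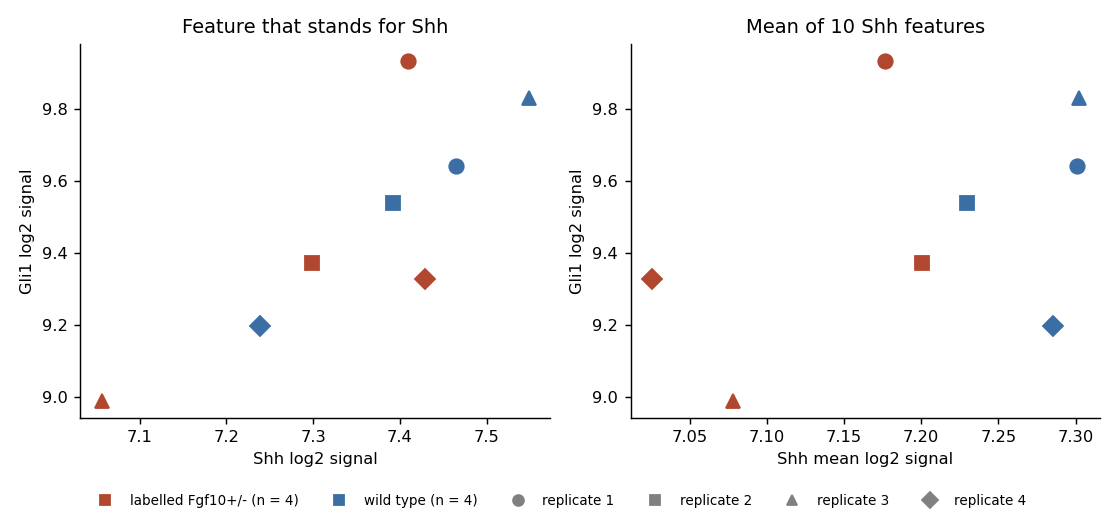
Gli1 log2 signal (vertical) against Shh log2 signal (horizontal) in the 8 libraries, on the feature that stands for Shh (left) and on the mean of its 10 features (right). Colours give the group and symbols the replicate number. The Pearson r is 0.83 on the left and 0.46 on the right.

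Genes with the most similar pattern over the 8 arrays were named, as a description, among genes whose mean signal lay above that of the median gene. Gli1 was closest to Adrm1, a ubiquitin receptor of the proteasome, with Pearson r = 0.99, then to the RNA helicase gene Eif4a1 and the kinase gene Stk38l with r = 0.98 each. Shh was closest to Mysm1, a histone deubiquitinase (r = 0.97), Ppp4r3b, a phosphatase subunit (r = 0.96), and Zfp286 (r = 0.96). Ptch1 was closest to Suclg1, an enzyme of the citric acid cycle (r = 0.94), Homez (r = 0.94) and Tbx22 (r = 0.91). Hhip was closest to the RNA-binding protein gene Celf2 (r = 0.94), Dolk (r = 0.91) and Pja2 (r = 0.90). No hedgehog gene is among these 12, but Ptch1, Gli2 and Sufu lie below the median gene in signal and could not appear. With 10420 genes compared over 8 arrays, 51 genes had r over 0.9 with Gli1, 26 with Shh and 4 with Hhip, and 6 of 10421 with Ptch1.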

How the data were processed

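Total RNA from 8 mouse lungs was labelled with Cy3 and hybridised to Agilent arrays, per the labels' protocols. The values are log2 signals as deposited by the authors, read as log2 from their range of 1.51 to 15.99, and they share 1 distribution (sorted values differ by at most 0.0042 between arrays). The submitters' processing notes name limma, without a version or a role. No source used here describes background correction, and its effect on low signals was not tested. Of 62976 features, 120 lacked a value on some array and were dropped. Names are those of the platform annotation, with symbols updated by accession against RefSeq, which held 29036 of 31465 named features. A gene with several features was represented by the one of highest average signal.

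Groups came from the titles. limma 3.58.1 in R 4.3.3 was run over 20842 genes (group only, eBayes, two-sided, Benjamini-Hochberg, threshold 0.05), with exact permutation tests over 70 assignments for single genes. When tested on simulated data of 20842 genes with known changes, the fit found 43 of 100 genes shifted by 1 on the log2 scale, 80 of 100 shifted by 2, and 13 false ones in its 136 calls. The simulated noise was independent between genes. Shifts as small as the hedgehog differences were not simulated, so these shares do not apply to them. The number of arrays limits precision. No source used here gives slide, scan date, litter or sex, and no batch was tested. The members, lists and alternatives were chosen with earlier results of these data known. Named were the members, 8 fixed pathway genes, the 3 smallest p of each pathway list, the first gene of each marker list, and the 3 genes most like each of 4 members. The alternatives were averaged or separate features, further quantile normalization, centring, filters on dim genes, a variance trend, array weights, a replicate block, and libraries left out. A pseudocount did not apply to log2 values. Figures were drawn with matplotlib 3.10.9.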

Additional observations from a re-analysis of the deposited data

Results flagged for a closer look

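In 74 groups of 4 examined (each member, each named pathway gene and each list's mean deviation, in each group), 8 held a library whose gap to the nearest other, as a share of the group's range, was above Dixon's 95% critical value. Chance flags about 1 in 20 groups. Gli2 reached 5.97 in Fgf10+/- replicate 1, against at most 4.88 in the rest of that group, and Dhh was 7.85 in the same library, against at most 6.93. Sufu was 4.36 in wild-type replicate 2, where the next wild-type value was 3.11, and Scube1 was 6.19 in the same library, where the next was 4.88. Tulp3 was 7.96 in wild-type replicate 4, where the next was 7.28. In that library the cartilage list deviated by 3.43 and the skeletal muscle list by 3.17, where the next wild-type deviations were -0.43 and -0.17. The blood and immune list deviated by -0.40 in Fgf10+/- replicate 4, where the next lowest was 0.20. What sets these libraries apart was not tested.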

How the results depend on the processing

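No hedgehog gene passed under any of 19 alternatives. Of 149 values of the 8 members under them, 142 kept their direction and 7 reversed, and the adjusted p ran from 0.195 to 0.993. Separate features, the filters on dim genes, the variance trend and the replicate block leave each member's difference as it was. Those values could not reverse, nor could the average of a gene with 1 feature, so the 142 overstate how far direction was tried. With all features of a gene averaged, Ptch1 was at 0.21 and Sufu at 0.13, and in the wider pathway Evc was at -0.022 and Cdon at 0.19. These 4 genes have features that disagree in direction. In that setting 2 members rather than 1 had an exact permutation p under 0.05, Shh besides Gli3. Without both Fgf10+/- replicate 3 and wild-type replicate 4, Sufu was at 0.10. With each library left out in turn, Ptch1 ranged from -0.43 to 0.068, Sufu from -0.42 to 0.22, Hhip from -0.022 to 0.13, and the co-receptor Boc from -0.0090 to 0.12. The cause of these reversals was not tested. Of all genes, 0 passed in the main setting, 38 or 288 with genes below the 25th percentile or the median of mean signal left out, 414 with a variance trend and robust settings, 3 with array weights, and from 0 to 1 with a library left out. None of the 64 other pathway genes was among them in any of these settings. Gli2, Ptch1 and Sufu have no value with genes below the median left out. Whether the labels' replicate numbers pair the samples was not settled. The r of deviations from the group means was 0.02 to 0.11 between same-numbered samples. It was above that with other numbers for replicate 1 (0.11 against at most 0.07) and replicate 4 (0.08 against at most 0.05). For replicates 2 and 3 it was not. With the replicate block the Gli3 difference stayed at 0.28 (limma adjusted p = 0.456), and 0 genes passed. Signal near the floor limits Sufu, Ihh and the second Ptch1 feature.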
